A study of Glycine max with 11 samples.

Results

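The 150 soybean genes described here varied least in transcript level across seed maturation and enforced drying. They were chosen from 56044 genes in the deposited counts. A gene was eligible when it had at least 20 CPM (its count after scaling the library total to 1000000) in each of the 11 libraries, which 2563 genes met. Eligible genes were ranked by the standard deviation (SD) of their log2 normalized count over the 11 libraries, lowest first, where a normalized count is the read count divided by the DESeq2 size factor of its library. The first 150 were taken. The values of all 11 libraries thus chose the genes, and their low spread is a description and not a finding.

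The seeds came from Glycine max cv. BRS284 grown in the field, and RNA was extracted from whole seeds pooled at each stage. Freshly harvested seeds gave 1 library at stage 7.1 (green seeds, early mature green), 2 at stage 7.2 (physiological maturity), 1 each at stages 7.3, 8.1, 8.2 and 8.3, and 2 at stage 9 (dry seeds at harvest maturity). Seeds harvested at stage 7.2 and then dried rapidly in warm, dry air gave 2 libraries. No genotype other than BRS284 was used, and the study calls the replicates biological, while the labels do not say whether they came from separate plants or harvests. In bulk RNA of whole seeds, fewer cells of a type and less RNA per cell cannot be told apart.

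A gene whose transcript level stays level while the rest of the transcriptome changes can serve as a reference gene in RT-qPCR, where the signal of a target is divided by that of the reference. Genes of basic cell upkeep, such as those for ribosomal proteins, which build the protein-making machinery, and for the proteasome, which degrades ubiquitin-tagged proteins, are common choices. Late seed maturation is a demanding setting for such genes, since seed filling ends, chlorophyll is lost and the tissue dries within the period sampled. The study used a pair of reference genes for its RT-qPCR, a 60S ribosomal protein L6 gene (Glyma.15G271300) and a 20S proteasome subunit beta gene (Glyma.06G078500). It cited an earlier source for them and stated that both varied little in its own RNA-seq data. Of the 150 most stable genes, only the L6 gene could be named. Neither the files nor the tables at hand pair the other 149 identifiers with a name, so these are described by identifier and by value alone.

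The primers of both reference genes are shown because they are the study's own use of a stable gene. They are written 5′ to 3′.
Glyma.15G271300 forward: ggcagagaaggaggagaa
Glyma.15G271300 reverse: acctagcacccaagtaaga
Glyma.06G078500 forward: caccaacacacgatacaact
Glyma.06G078500 reverse: tcccaaccaccaacaattaacc

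Library totals ranged from 12881662 to 60626937 counts, the lowest and the highest both in dried seeds. A pair of libraries stood apart. At stage 7.1 the 10 most abundant genes took 33.9% of all counts, against 10.3% to 16.0% in the other 10 libraries, and 4930 genes had at least 20 CPM there, against 5433 to 7651 in the others. Replicate 2 of the dried seeds had the deepest library but the next lowest number of genes at 20 CPM, 5433. Of the 1896 genes that missed 20 CPM in a single library, 1534 missed it at stage 7.1 and 273 in that dried replicate. As a check of the tissue, 3 genes that the study named as oleosins, proteins that coat the oil bodies of seed cells, summed to 9184 CPM at stage 7.1 and to between 187 and 3368 CPM in the other libraries. The 6 genes it named as late embryogenesis abundant, proteins of late maturation, summed to 1087 CPM at stage 7.1 and to between 2404 and 10716 CPM in the other libraries. A gene it named as a small subunit of ribulose bisphosphate carboxylase, an enzyme of green tissue, had 26.0 CPM in the green seeds of stage 7.1, below the 51.2 and 81.99 CPM of dried and the 115.5 and 119 CPM of fresh seeds of stage 7.2, and was lowest at stage 8.2 with 4.84 CPM.

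The SD of the 150 genes ran from 0.0742 to 0.236 on the log2 scale, with a median of 0.199, while the median over all 2563 eligible genes was 0.517. Over the 29126 genes with a count in every library it was 0.720. For a member of median range, the highest library held 1.56 times the normalized count of the lowest, and the widest range was 1.95-fold. In 47 of the 150 genes all 11 libraries lay within 1.5-fold of each other, and these were all such genes among the eligible ones. All 150 lay within 2-fold, as did 393 of the 2563 eligible genes (15.3%). Just inside the limit of the list, Glyma.13G137100 had an SD of 0.2355, and just outside it Glyma.18G045000 had 0.2357, so that nothing in the distribution of SDs marks the limit (the histogram of SDs).

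**Figure D1:**
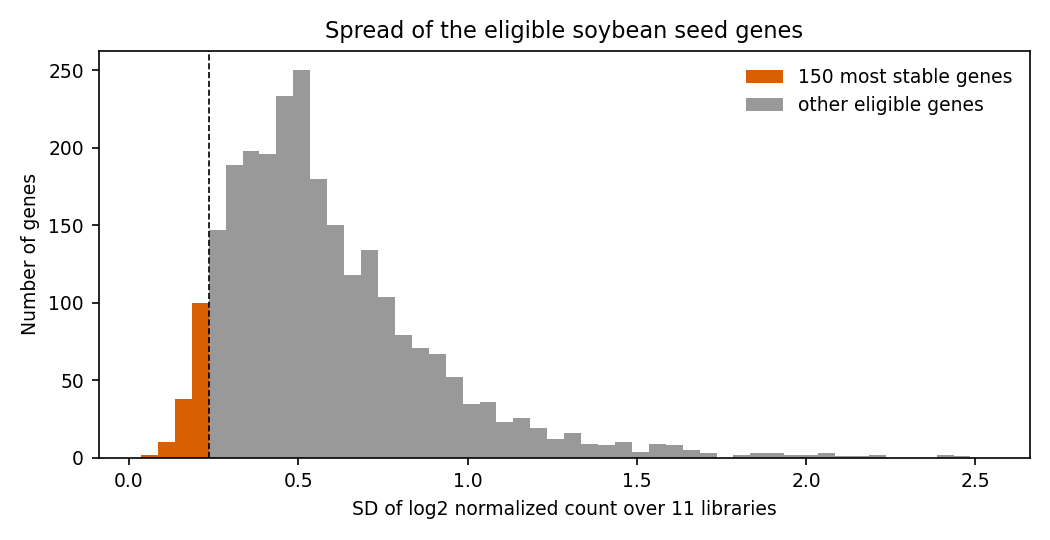
Histogram of the SD of the log2 normalized count over 11 libraries (x axis, log2 units) for the 2563 eligible genes, with the number of genes on the y axis. The 150 most stable genes (orange) fill the left tail up to an SD of 0.236, marked by the dashed line, and the other 2413 (grey) continue without a gap.

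Glyma.12G039900 had the lowest SD of all, 0.0742. It had 1053 normalized counts at stage 7.1, 982 and 1136 in dried seeds of stage 7.2, and 1034 and 1106 in fresh seeds of stage 7.2. Counts at the later stages were 1153 at 7.3, 1134 at 8.1, 1161 at 8.2, 1061 at 8.3, and 1074 and 1102 at stage 9. No stage stood apart, and the lowest and highest libraries differed by 1.18-fold. If reads had been the only source of variation, counting error at these depths would give an SD of 0.0451, which is 60.8% of the SD observed.

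Glyma.15G183400 followed with an SD of 0.0789. Its normalized counts were 743 at stage 7.1, 734 and 803 in dried seeds of stage 7.2, and 730 and 727 in fresh seeds of stage 7.2. At stages 7.3, 8.1, 8.2 and 8.3 they were 796, 750, 651 and 722, and at stage 9 they were 732 and 726. Here the single library of stage 8.2 was lowest and a dried library was highest, while the pairs of fresh replicates differed by less than 1% of the gene's mean count of 737.5. Counting error alone would give an SD of 0.05475, which is 69.4% of the SD observed. Over the 150 genes that ratio of SDs had a median of 21.4% and a range of 5.61% to 69.4%. The SD observed was thus larger than that of counting error in each of them.

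The remaining 8 of the 10 lowest SDs, from 0.101 to 0.132, belonged to Glyma.07G130200, Glyma.06G300800, Glyma.20G106300, Glyma.10G263700, Glyma.03G110300, Glyma.02G187100, Glyma.09G009900 and Glyma.03G055500. Their mean normalized counts lay between 673 and 2792. Glyma.06G300800 shows how the dried replicates entered this ranking, since its highest value of all libraries, 1181, and its lowest, 926, were both in dried seeds of stage 7.2. In its fresh libraries it lay between 958 at stage 9 and 1174 at stage 8.1.

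The most abundant of the 150 genes was Glyma.03G116600. It had 22665 normalized counts at stage 7.1, 15725 and 22217 in dried seeds of stage 7.2, 17889 and 17439 in fresh seeds of stage 7.2, and 17889 at stage 7.3. Stages 8.1, 8.2 and 8.3 had 16468, 14533 and 19213, and stage 9 had 20393 and 18892. The dried replicates lay on either side of the fresh ones and differed from each other more than stage 9 differed from stage 7.2. Next came Glyma.10G241900, with 12993 normalized counts at stage 7.1, its lowest value, and 18840 and 17012 at stage 9. Such abundant genes were few. Mean normalized counts of the 150 had a median of 1258, against 2029 for all eligible genes, and when the eligible genes were split by mean level into 4 groups of near equal size, 76 of the 150 came from the lowest group (up to 1274), against 32, 29 and 13 from the groups above it. In these groups, from the lowest level to the highest, the median SD of all eligible genes was 0.377, 0.491, 0.596 and 0.772.

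The L6 gene, Glyma.15G271300, ranked 130 among the 150, with an SD of 0.228. Its normalized counts were 2974 at stage 7.1, 2605 and 3155 in dried seeds of stage 7.2, and 3052 and 3053 in fresh seeds of stage 7.2. They were 4255 at stage 7.3, 3486 at 8.1, 2699 at 8.2 and 3640 at 8.3, and 3843 and 3901 at stage 9. The single library of stage 7.3 was highest and a dried library was lowest, a range of 1.63-fold. Both stage 9 libraries lay above all libraries of stage 7.2, dried and fresh.

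The proteasome gene, Glyma.06G078500, was not among the 150, although its SD of 0.205 was lower than that of the L6 gene and would have placed it at rank 87. It had between 25.1 and 46.5 CPM in 10 libraries and missed the minimum of 20 in replicate 2 of the dried seeds, with 18.2 CPM (1105 counts in the deepest library). Its normalized counts were 758 at stage 7.1, 637 and 630 in dried seeds of stage 7.2, and 753 and 770 in fresh seeds of stage 7.2. They were 703 at stage 7.3, 879 at 8.1, 913 at 8.2 and 917 at 8.3, and 933 and 839 at stage 9. Both dried libraries lay below all 9 fresh ones. Between dried and fresh seeds of stage 7.2 its change on the log2 scale was -0.25 ± 0.175 (standard error, 2 libraries in each group), and it was not called (edgeR adjusted p = 0.297 over all genes tested, and 0.0923 to 0.744 over the alternative fits). Between stage 9 and dried seeds it was 0.47 (standard error 0.165, edgeR adjusted p = 0.127, and 0.00117 to 0.741 over the alternative fits). A further 50 genes resembled it in that they missed the minimum in 1 library only and had an SD below that of the last member.

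**Figure D2:**
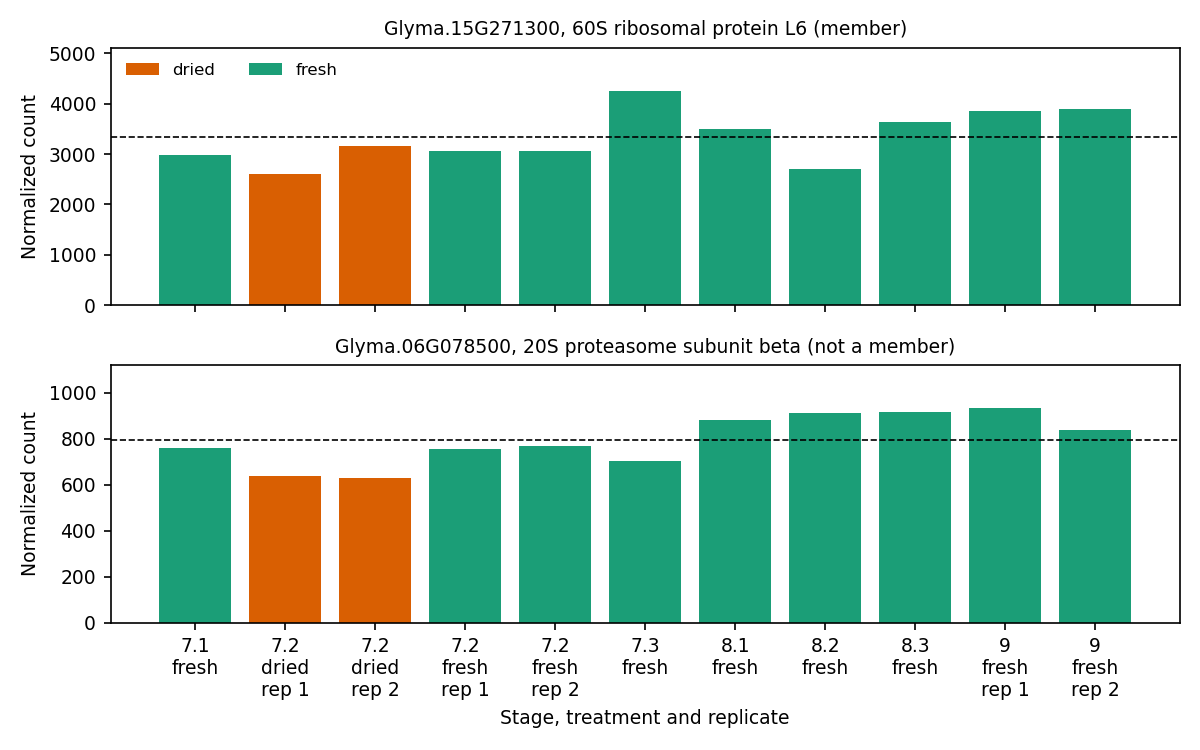
Normalized counts (y axis) of the L6 gene (upper panel) and the proteasome gene (lower panel) in each of the 11 libraries, ordered by stage, with dried seeds in orange, fresh seeds in green and the mean over libraries as a dashed line. The L6 gene peaks at 4255 at stage 7.3 and the proteasome gene is lowest, at 637 and 630, in the dried libraries.

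The ratio of both reference genes does not depend on any scaling of the libraries. The L6 gene had 3.92 reads for each read of the proteasome gene at stage 7.1, 4.09 and 5.005 in dried seeds of stage 7.2, and 4.05 and 3.97 in fresh seeds of stage 7.2. The ratio was 6.05 at stage 7.3, 3.96 at 8.1, 2.96 at 8.2, 3.97 at 8.3, and 4.12 and 4.65 at stage 9. It was close to 4 in most libraries, with the single libraries of stages 7.3 and 8.2 at the extremes, and its SD on the log2 scale was 0.256. For comparison, over all 11175 pairs among the 150 genes the SD of the log2 ratio had a median of 0.250 and ranged from 0.0627 to 0.447. For the L6 gene against the other 149 the median was 0.241, while against all other eligible genes it was 0.529. When the 150 were ordered by their mean SD of ratios to the other members, Glyma.07G130200 came first with 0.193. Glyma.12G039900 followed with 0.195 and Glyma.15G183400 with 0.198. Of the 10 genes with the lowest SD, 7 were also among the first 10 by ratio. The ratios use the same counts that ranked the genes, and a gene's own variation enters each of its ratios. The overlap is thus a description and no separate check of the ranking. The L6 gene took place 61.

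The remaining variation was not spread evenly over the libraries (the box plot of deviations). Relative to each gene's own mean, the 150 genes lay lowest at stage 7.1, with a median deviation of -0.12 on the log2 scale, and highest in replicate 1 of stage 9, with 0.10. The deviation was -0.09 and -0.01 in the dried replicates and -0.04 and -0.03 in the fresh replicates of stage 7.2, 0.08 at stage 7.3, 0.06 at 8.1, -0.05 at 8.2, 0.03 at 8.3 and 0.04 in replicate 2 of stage 9. The eligible genes as a whole had a median deviation of -0.75 at stage 7.1, and in the other libraries theirs ran from -0.22 in replicate 1 of fresh stage 7.2 to 0.25 in replicate 2 of the dried seeds. At stage 7.3 the median signed deviation of the 150 genes was near that of the eligible genes (0.08 against 0.07). The SD over genes there was 0.1395 for the 150 and 0.326 for the eligible genes. The spread among the 150 was widest at stage 7.1 (SD over genes 0.259) and in replicate 2 of the dried seeds (0.248), and narrowest in the stage 9 libraries (0.124 and 0.113).

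Stage 7.1 was the lowest library for 46 of the 150 genes (30.7%), against 58.0% of all eligible genes. Replicate 1 of the dried seeds was lowest for 33 (22%, against 4.33% of eligible genes) and stage 8.2 for 26 (17.3%, against 13.7%). Replicate 2 of the dried seeds was lowest for 23 (15.3%, against 3.98%). The maximum fell most often in replicate 2 of the dried seeds (30 genes, 20%, against 27.74% of eligible genes). Stage 7.3 held the maximum of 22 (14.67%, against 4.175%). Stages 7.1 and 8.1 and replicate 1 of stage 9 held 17 each (11.33%, against 8.35%, 8.076% and 6.399%). By share, replicate 2 of the dried seeds thus held more minima of the 150 than of the eligible genes, and fewer maxima. Dried replicate 1 held the maximum of 8 genes (5.333%, against 8.701%) and stage 8.2 of 7 (4.667%, against 13.93%). These libraries and stage 7.1 held more minima than maxima of the 150. A principal component analysis of the deviations gave components with 26.95%, 23.1% and 14.85% of the variance. Stage 7.1 had the largest loading on the first (0.73, against 0.25 to 0.27 in fresh stage 7.2 and -0.364 and -0.215 at stage 9), and the dried replicates had loadings of opposite sign on the second (-0.40 and 0.61) and of the same sign on the third (0.54 and 0.61).

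**Figure D3:**
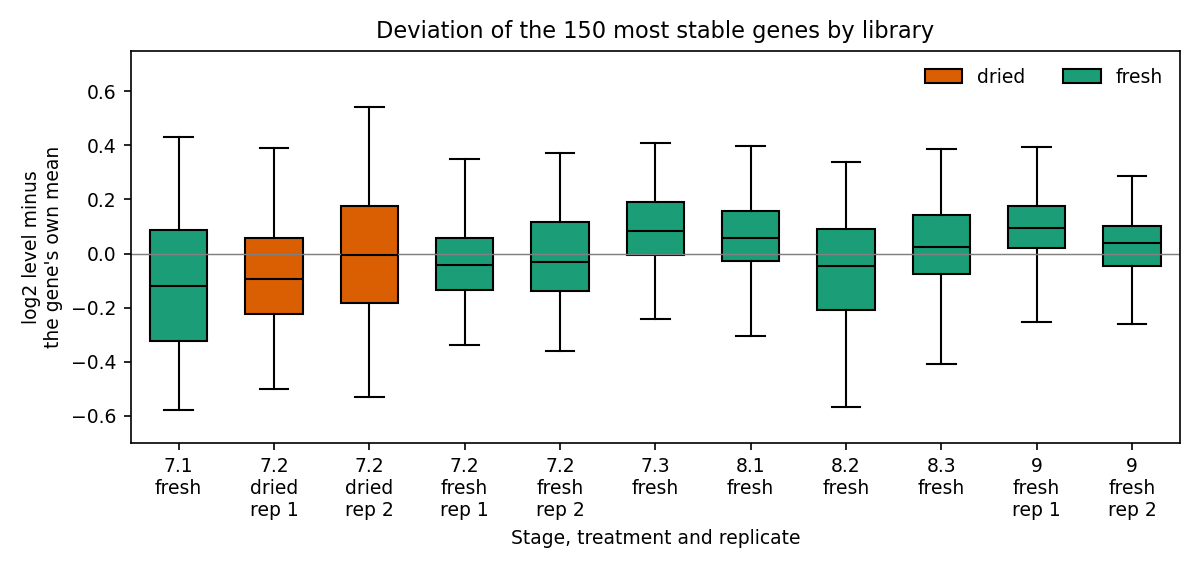
Deviation of the log2 normalized count from the gene's own mean over 11 libraries (y axis) for the 150 most stable genes in each library (x axis, ordered by stage, dried seeds in orange and fresh seeds in green). Boxes give the quartiles and median and whiskers the lowest and highest gene. Medians lie between -0.12 at stage 7.1 and 0.10 in replicate 1 of stage 9, and the widest boxes are those of stage 7.1 and dried replicate 2.

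Replicates of the dried seeds differed most. The median absolute difference between replicates was 0.215 on the log2 scale in dried seeds over the 150 genes, 0.0734 in fresh seeds of stage 7.2 and 0.0887 at stage 9, and over all eligible genes it was 0.359, 0.102 and 0.0877. At stage 9 the 150 genes were thus no closer between replicates than other eligible genes were. The median absolute change from 1 stage to the next in fresh seeds was 0.231 between stages 7.1 and 7.2, 0.167 between 7.2 and 7.3 and 0.122 between 7.3 and 8.1. It was 0.186 between stages 8.1 and 8.2, 0.156 between 8.2 and 8.3 and 0.118 between 8.3 and 9. For all eligible genes these 6 values were 0.689, 0.326, 0.330, 0.213, 0.245 and 0.167. Steps that join single libraries have no replicate check.

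Drying and maturation were compared in edgeR fits over all genes, with a call at a 2-fold change and an adjusted p under 0.05. All 150 genes passed the filter on low counts. For dried against fresh seeds of stage 7.2, 0 of the 150 were called, where 32.8% of all 30132 genes tested and 18.7% of the eligible genes were. For stage 9 against fresh seeds of stage 7.2, 0 were called, against 44.9% of 29707 genes and 24.0% of the eligible ones. For stage 9 against dried seeds of stage 7.2, 0 were called, against 7.79% of 25797 genes and 4.06% of the eligible ones. The number of genes behind this last background, 2009, moved widely in either direction when single libraries were left out. So did the 9894 genes called for dried against fresh seeds. Such fits leave 1 library in a group, and the cause of these moves was not tested. At an unadjusted p under 0.05 with no fold threshold, edgeR counted 4, 71 and 2 members in these 3 comparisons. DESeq2 counted 1, 56 and 1, and it also called 0 at the full thresholds. The share of all genes at that unadjusted p is not given, so these numbers have no background. The libraries compared had entered the choice of the genes, so nothing is read from these counts.

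For dried against fresh seeds of stage 7.2 the log2 fold changes of the 150 ran from -0.53 to 0.60 with a median of 0.02, and the median standard error was 0.197. Over all genes tested the median was -0.05, and over the eligible genes it was 0.42. For stage 9 against fresh seeds of stage 7.2 they ran from -0.52 to 0.59 with a median of 0.08 and a median standard error of 0.0886, where all genes had a median of -0.10 and the eligible genes 0.38. Between stage 9 and dried seeds they ran from -0.38 to 0.50 with a median of 0.06 and a median standard error of 0.181, where all genes had a median of -0.05 and the eligible genes -0.06. With the smaller error in the comparison of stage 9 with fresh stage 7.2, 67 of the 150 passed an adjusted p of 0.05 in edgeR when no fold threshold was set, 49 of them higher and 18 lower at stage 9 (background 73.6% of all genes tested, 34.4% higher and 39.1% lower). In the comparisons with dried seeds this number was 1 against fresh stage 7.2 and 0 for stage 9 (background 40.9% and 9.15%). The libraries compared had entered the choice of the genes here too. These numbers are a description, and nothing is read from them.

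**Figure D4:**
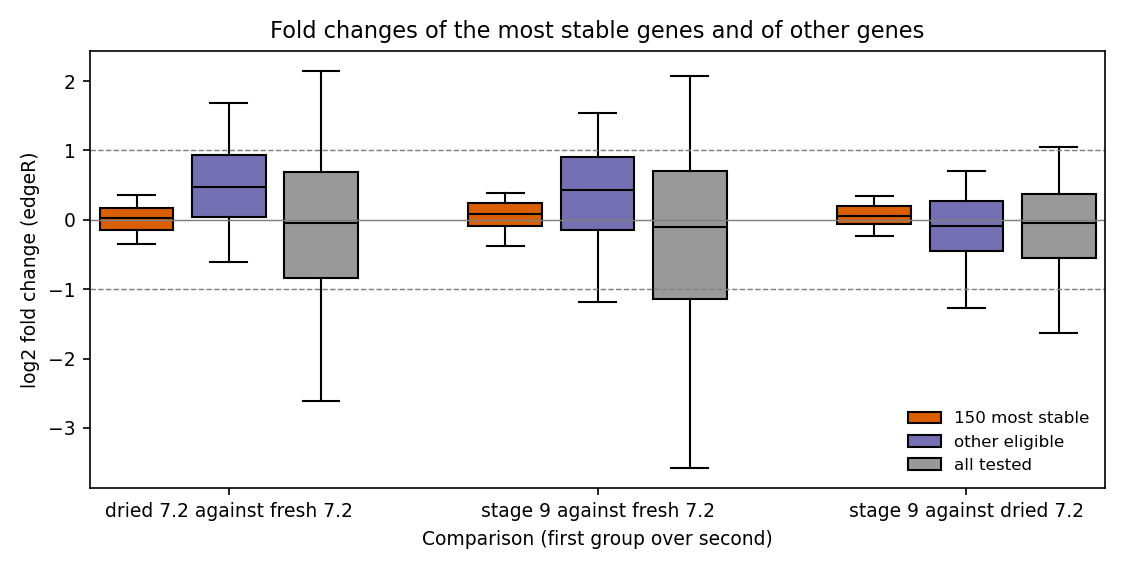
Log2 fold changes from edgeR (y axis) in 3 comparisons (x axis) for the 150 most stable genes (orange), the other eligible genes (violet) and all genes tested (grey). Boxes give the quartiles and median, whiskers the 5th and 95th percentiles, and dashed lines a 2-fold change. The 150 genes stay within the dashed lines in each comparison, with a largest absolute value of 0.60.

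Among the 150, Glyma.08G051600 had the highest log2 fold change on drying, 0.60 (standard error 0.192), with 2481 and 2530 normalized counts in dried seeds against 1687 and 1657 in fresh seeds of stage 7.2. The groups did not overlap, and the dried libraries were the highest of all 11. Glyma.09G140300 had the lowest, -0.53 (standard error 0.188), with 722 and 818 in dried seeds against 1093 and 1162 in fresh seeds, which were its highest libraries. At stage 9 against fresh stage 7.2, Glyma.13G025900 had the highest value, 0.59 (standard error 0.0874), with 1143 and 1044 at stage 9 against 701 and 740 in fresh seeds of stage 7.2. Glyma.02G165400 had the lowest, -0.52 (standard error 0.0850), with 1377 and 1371 at stage 9 against 1875 and 2028 in fresh seeds. These 4 genes were picked for their extreme values, so their lack of overlap is a description only. The values of the L6 gene in these libraries had entered its choice as a member. The p-values given for the L6 gene are thus also a description only. The L6 gene had a log2 fold change of -0.06 (standard error 0.214) for dried against fresh seeds and 0.41 (standard error 0.194) for stage 9 against dried seeds (edgeR adjusted p = 0.828 and 0.214, and 0.225 to 0.94 and 0.00138 to 0.761 over the alternative fits). For stage 9 against fresh stage 7.2 it had 0.32 (standard error 0.0895), and it was one of the 67 genes past an adjusted p of 0.05 there (edgeR adjusted p = 0.00627, and 0.000374 to 0.129 over the alternative fits). The proteasome gene had 0.20 (standard error 0.0883, edgeR adjusted p = 0.0572, and 0.0259 to 0.302 over the alternative fits) in that comparison.

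On the CPM scale the same genes were less level. Their median SD of log2 CPM was 0.294. Together they held 0.878% of all counts in replicate 2 of the dried seeds, 1.085% in replicate 1 and 1.15% at stage 7.1, against 1.25% to 1.475% in the other 8 libraries (the bar plots of shares). The shares were low where abundant genes took more of the reads, at stage 7.1 (the 10 most abundant genes at 33.9%) and in dried replicate 2 (16.0%), but also in dried replicate 1 (13.1%), and the part of abundant genes in this was not tested.

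**Figure D5:**
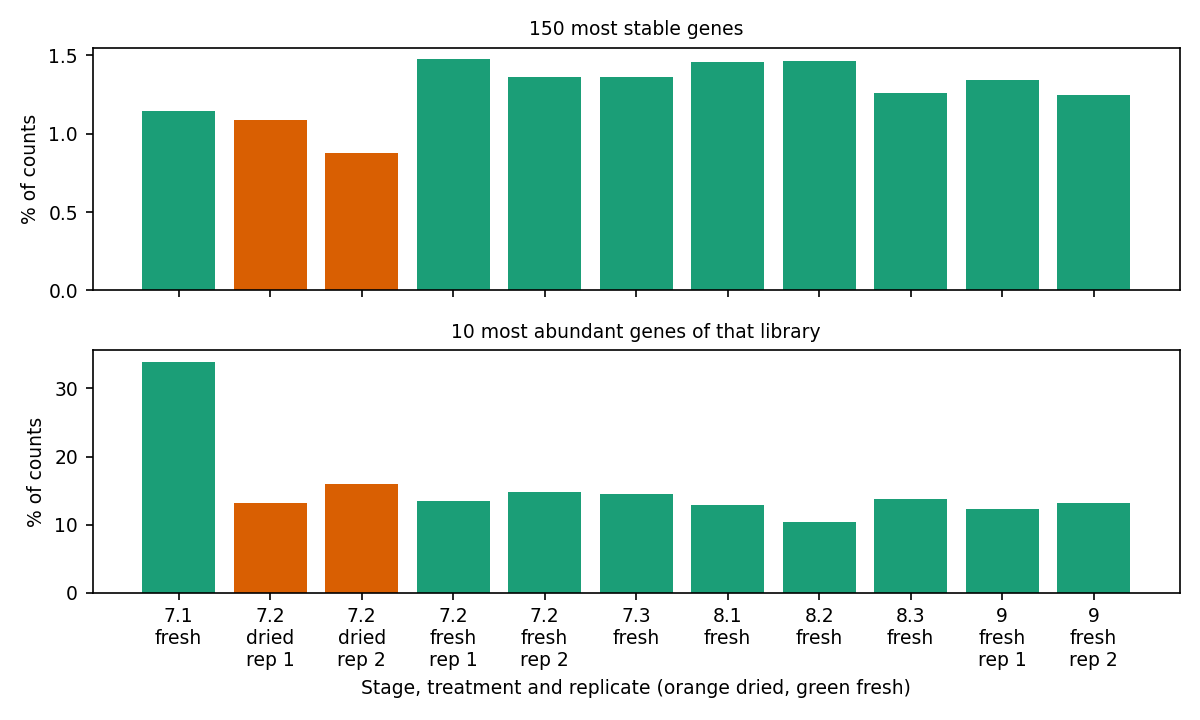
Percent of all counts (y axes, from 0) held by the 150 most stable genes together (upper panel) and by the 10 most abundant genes of each library (lower panel) in the 11 libraries ordered by stage, dried seeds in orange and fresh seeds in green. The upper bars are lowest in the dried libraries (1.085% and 0.878%) and at stage 7.1 (1.15%), and the lower bar is highest at stage 7.1 (33.9%).

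Whether a low spread in some conditions carried over to another was examined by choosing 150 genes without that condition and then reading it. Without the dried libraries, 2903 genes were eligible, among them the 273 that missed 20 CPM in dried replicate 2 only. Of the 150 then chosen, 65 were among the 150 of the full rule. In the dried libraries left out, those 150 had a median absolute log2 difference of 0.239 from the mean of the fresh libraries, against 0.342 for the other eligible genes. Of the 150, 137 lay within 1.5-fold (91.3%, against 74.9% of the others) and 0 beyond 2-fold (against 9.55%). Their median difference was -0.15, and that of the other eligible genes was 0.17. For dried against fresh seeds of stage 7.2, edgeR called 0 of the 150 (17.1% of the genes eligible without dried seeds). DESeq2 also called 0. At an unadjusted p under 0.05 edgeR counted 16, with no background share given at that threshold. The fresh libraries of stage 7.2 had entered this choice, so only the dried arm of these fits was held out.

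Without the stage 9 libraries, 138 of the 150 genes chosen were the same as in the full rule. At stage 9 all 150 lay within 1.5-fold of the mean of the other libraries, as did 77.4% of the other eligible genes, with a median absolute log2 difference of 0.121 against 0.336. For stage 9 against fresh stage 7.2 edgeR called 0 of them (24.2% of the genes eligible without stage 9), and DESeq2 called 0. At an unadjusted p under 0.05 edgeR counted 75, again with no background share given. Here too the fresh libraries of stage 7.2 had entered the choice, and only the stage 9 arm was held out. Without stage 7.1 the outcome was another. Of the 150 genes then chosen from 4097, 69 were among the 150 of the full rule, and in the single library of stage 7.1 only 64 of them (42.7%) lay within 1.5-fold of the mean of the other libraries, while 55 (36.7%) were more than 2-fold away, with a median difference of -0.63. The other eligible genes had 66.9% beyond 2-fold and a median of -1.42. The 4097 genes included the 1534 that missed 20 CPM at stage 7.1 only, so a low level there was partly set by the choice. In this wider pool, genes level from stage 7.2 onwards, drying included, were often at another level in green seeds of stage 7.1. That stage has no replicate.

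The list itself depended on a few libraries and on the scale. Without replicate 2 of the dried seeds, 73 of the 150 were still among the first 150, and without any other single replicate at least 127 were. Ranking on CPM kept 52. Across 9 alternatives that kept the minimum of 20 CPM (TMM or CPM scaling, the range, the median absolute deviation or replicate means in place of the SD, and the rule without the dried libraries, stage 7.1, stage 9 or dried replicate 2), a set assembled after the data were seen, 9 genes were in the first 150 every time. These were Glyma.12G039900, Glyma.15G183400, Glyma.09G009900 and Glyma.03G055500, which are among the 10 with the lowest SD, and Glyma.17G219600, Glyma.13G192200, Glyma.04G194700, Glyma.18G034700 and Glyma.03G205500, with SDs of 0.135 to 0.168.

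Glyma.09G009900 had 659 normalized counts at stage 7.1, 783 and 716 in dried seeds of stage 7.2, 638 and 723 in fresh seeds of stage 7.2, 834 at stage 7.3, 859 at 8.1, 720 at 8.2, 733 at 8.3, and 699 and 708 at stage 9. Glyma.03G055500 had 649 at stage 7.1, 534 and 750 in dried seeds, 648 and 636 in fresh seeds of stage 7.2, 716 at 7.3, 713 at 8.1, 652 at 8.2, 711 at 8.3, and 699 and 693 at stage 9. In the first the single libraries of stages 7.3 and 8.1 were highest, and in the second the dried replicates were the extremes. The L6 gene stayed in the first 150 under 3 of the 9 alternatives, with places from 95 without stage 9 to 830 by the median absolute deviation. Without the dried libraries the proteasome gene took place 101 of 2903 and the L6 gene place 321.

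By the chromosome number in their identifiers, the 150 genes lay on all 20 chromosomes and 1 lay on an unplaced scaffold. Chromosome 8 held 18 of them (12%, against 7.96% of eligible genes), chromosomes 2, 13 and 16 held 11 each (7.33%, against 4.72%, 11.1% and 3.51%), and chromosome 14 held 1.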

How the data were processed

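RNA of whole seeds was sequenced in 11 libraries. After trimming adaptors and filtering out reads of low complexity, the authors aligned the single-end reads using Bowtie2 (version not given in the sources used here) to the Williams 82 soybean genome and deposited whole-number read counts per transcript, 1 transcript per gene, without normalization. The counting program is not given in the sources used here, and near-identical gene copies may share reads. A line without a gene name held 0% of the counts and was left out.

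CPM were computed on the column sums, and normalized counts with DESeq2 1.42.0 size factors over all 11 libraries. Group comparisons (n = 2 libraries each) used edgeR 4.0.16 (limma 3.58.1, R 4.3.3) on the 4 libraries concerned, with TMM, filterByExpr, two-sided quasi-likelihood F tests, Benjamini-Hochberg adjustment over all genes tested, and calls at a 2-fold change or more in either direction with an adjusted p under 0.05. Standard errors were derived from the F statistic. Counting error was taken as Poisson. Other steps used Python 3.11.15, numpy 2.4.6 and pandas 2.3.3. The ranking and the fits were tested on simulated data.

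The members, lists and tests were chosen with earlier results of these data known. Genes named are the 10 of lowest SD, the 2 most abundant, those at the limit of the rule, the reference genes and, of those with extreme fold changes, 2 in each direction since they have no names. Those kept under every alternative were added after their values were seen. Planned lists by gene name (ubiquitin and proteasome, translation, RNA processing and others), nearest paralogues, proteins and promoters were not analysed here, since no annotation matched the identifiers. Of the planned tissue markers, oleosin, late embryogenesis abundant and the small subunit could be taken from gene names given by the study. Alternatives replaced the scaling, the minimum level, the measure of spread, the tool, the filter and the libraries used, and added a replicate block.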

Additional observations from a re-analysis of the deposited data

How the results depend on the processing

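Of the 150 genes, 133 stayed in the first 150 with TMM, 124 with the range, 108 with replicate means and all 150 with a pseudocount of 1. Fewer stayed on the CPM scale (52, or 34.7%), with a minimum of 5 CPM (36, or 24%) or none (28, or 18.7%), with the median absolute deviation (56, or 37.3%), without the dried libraries (65, or 43.3%) and without stage 7.1 (69, or 46%). With single replicates left out, 48.7% to 97.3% stayed, the lowest without dried replicate 2 (73 genes) and the next lowest without dried replicate 1 (127). The eligible genes numbered 9322 at 5 CPM and 29126 with no minimum, so the lists at lower minimums are drawn from more genes. The median SD of the members was 0.209 with TMM and 0.294 on the CPM scale. No member was called in the 3 comparisons under any fit run at a 2-fold threshold. The widest range of a member was 1.95-fold over the 11 libraries, so the choice of the genes largely fixed this outcome. Without the fold threshold, 1 was called for dried against fresh stage 7.2 and 67 for stage 9 against fresh stage 7.2. These counts come from libraries that the rule used and are a description only. The medians of the members' log2 fold changes moved by less than the replicate SD of 0.106 under every fit.

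For dried against fresh stage 7.2, the genes called among all tested ranged from 4857 to 13026 with single libraries left out, and without fresh replicate 1 or 2 they were 4857 and 5159. For stage 9 against dried stage 7.2, they were 4728 with no low-count filter and 3521 with all 11 libraries in 1 fit, and ranged from 0 to 6160 with single libraries left out. They were 0 without either stage 9 replicate (edgeR, with 3022 and 3686 at a 2-fold change and an unadjusted p under 0.05), 6160 without dried replicate 1 and 3399 without dried replicate 2. DESeq2 called 2367. The lone library of an arm was assumed to vary like the other group, and the cause of these changes was not tested.

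With the replicate number as a block, 0 members were called in each comparison, which the choice of the genes had largely fixed. Over all genes, 10072, 13338 and 3007 were called (dried against fresh stage 7.2, stage 9 against fresh stage 7.2, stage 9 against dried stage 7.2). Without the block these numbers were 9894, 13351 and 2009. Deviations of same-numbered libraries correlated at 0.0872, 0.173 and 0.175 over 15748 genes, and the labels do not say that a number marks a shared batch, so the libraries were not treated as paired. Each member had at least 262 counts in every library, but counting error came to 60.8% and 69.4% of the SD of the most stable pair, so depth limits the order at the top of the list.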
